A study of Mus musculus with 40 samples.

Results

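The 34 genes described here encode enzymes and regulators of fatty acid and cholesterol synthesis, taken by symbol from the 55260 gene symbols that all 5 expression tables of the series list. All 34 were found in each table, and all 34 passed the filter on low values in each fit. They comprised 4 regulators (Srebf1, Srebf2, Scap and Insig1), 11 genes of fatty acid synthesis, desaturation, elongation and activation, 5 genes of glycerolipid and phosphatidylcholine synthesis, 13 genes of sterol synthesis, and Abca1, which exports cholesterol. Values are TPM, each gene's share of all transcripts in a library corrected for transcript length, from 40 mouse libraries. Embryonic lung tip epithelium gave 4 libraries, 1 for each whole day from E10.5 to E13.5 (days of embryonic development). Branching lung organoids grown from E9.5, E10.5, E11.5, E13.5 or E14 tips gave 10 libraries after 11 to 32 days in culture, 1 per combination. A set labelled LO held 1 library each at day 8, day 11, day 18 and day 11 with DCI. A set labelled 2C held 1 library each of 2C, 2C+F10, 2C+MTG, 2C+VC and an ALL library with no replicate number. A group labelled ALL and the groups with a minus sign and FGF10, MTG or VC after ALL had 2 numbered replicates each, and 1 intact organoid and 8 pieces cut from organoids made up the rest. The labels define none of LO, DCI, 2C, F10, MTG, VC or ALL. A plus sign is read here as an addition and a minus sign as an omission, which is an assumption. The labels give no strain, genotype or number of animals, nor do they tie replicates to separate animals or cultures. The p-values therefore cover the spread among these libraries alone. For the ALL-FGF10 and ALL-VC replicates it may be technical, while the ALL replicates and the ALL-MTG replicates differ in sex-linked genes, as given below. For organoids against tips it includes stage and culture day, since each library has its own stage or combination.

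Fatty acids are built from cytosolic acetyl-CoA, which Acly makes from citrate. Acaca converts acetyl-CoA to malonyl-CoA, Fasn joins malonyl units into palmitate, Elovl enzymes lengthen the chain, and Scd and Fads enzymes place double bonds in it. Cholesterol is built from the same acetyl-CoA through the mevalonate pathway, in which Hmgcs1 acts early, Fdft1 opens the sterol-specific steps and Dhcr7 acts last. The transcription factors Srebf1 and Srebf2 switch on both routes. Scap escorts them to the Golgi for activation, and Insig1 retains that complex in the endoplasmic reticulum when sterols are plentiful. In the lung, alveolar type 2 cells use fatty acids for the phosphatidylcholine of surfactant, for which Pcyt1a makes the activated choline and Chka the phosphocholine.

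Markers of lung epithelium were present in every library, with a summed level of 1245 to 1536 TPM in tips and 1318 to 1678 TPM in organoids. Alveolar type 2 markers summed to 139 to 294 TPM in tips and to 54144 to 134993 TPM in organoids, and 6 of 6 were higher in organoids by limma. Erythroid markers, all 5 lower in organoids, summed to 1593 to 7453 TPM in tips and to at most 1.28 TPM in organoids, where Hba-a1, Hbb-bt and Hbb-y were listed at 0. Mesenchyme markers summed to 92.2 to 193 TPM in tips and to 2.67 to 327 TPM in organoids, and proliferation markers to 1421 to 1660 TPM and 227 to 542 TPM. Mitochondrial genes took 6.54 to 8.29% of the TPM in tips and 11.3 to 15.2% in organoids. Each tip library lists 0 genes of 100 to 150 nt above 0 TPM and each organoid library lists 31 to 75, and whatever set this difference cannot be told apart from tip against organoid. In bulk RNA, fewer cells of a type and less RNA per cell cannot be told apart. Depth is unknown, because TPM keeps none. Fdps, Acaca and Idi1 are uncertain, since 86.4, 52.6 and 21.3% of the 50-base stretches in their longest transcripts also occur in transcripts of other genes, such as Gm5182 for Acaca.

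The windows upstream of 5 members are printed because these genes mark the different behaviours described below: Insig1 and Fasn were higher in organoids, Elovl6 had the largest fall among the 34 genes, and Hmgcs1 and Mvk belong to the sterol branch. Each line gives up to 250 bases before the start, 5′ to 3′ along the gene, from RefSeq on GRCm38.p6 (201 for Insig1 and 219 for Elovl6, whose GENCODE models begin earlier). Capitals mark CCAAT or its reverse complement ATTGG, the letters NF-Y recognises, CACGTG, an E-box, and TCACNCCAC, a sterol response element, whichever strand they were found on. Neighbouring matches can overlap, as CCAAT and ATTGG do in Fasn.
Insig1 (chr5:28071162-28071362, plus strand): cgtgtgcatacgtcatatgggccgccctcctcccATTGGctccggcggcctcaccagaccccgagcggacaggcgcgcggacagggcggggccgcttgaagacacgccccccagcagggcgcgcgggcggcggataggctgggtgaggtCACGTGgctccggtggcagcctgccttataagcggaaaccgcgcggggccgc
Fasn (chr11:120824548-120824797, minus strand): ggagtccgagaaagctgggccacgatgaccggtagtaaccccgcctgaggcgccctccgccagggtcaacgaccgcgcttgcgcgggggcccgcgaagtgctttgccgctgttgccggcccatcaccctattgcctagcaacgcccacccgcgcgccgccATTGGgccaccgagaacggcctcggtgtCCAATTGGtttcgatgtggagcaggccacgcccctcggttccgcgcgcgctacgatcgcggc
Elovl6 (chr3:129532136-129532354, plus strand): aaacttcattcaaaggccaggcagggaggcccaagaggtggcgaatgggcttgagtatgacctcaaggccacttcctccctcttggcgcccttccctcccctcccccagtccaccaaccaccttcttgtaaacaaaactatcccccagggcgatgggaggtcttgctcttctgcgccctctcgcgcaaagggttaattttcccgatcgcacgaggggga
Hmgcs1 (chr13:119690101-119690350, plus strand): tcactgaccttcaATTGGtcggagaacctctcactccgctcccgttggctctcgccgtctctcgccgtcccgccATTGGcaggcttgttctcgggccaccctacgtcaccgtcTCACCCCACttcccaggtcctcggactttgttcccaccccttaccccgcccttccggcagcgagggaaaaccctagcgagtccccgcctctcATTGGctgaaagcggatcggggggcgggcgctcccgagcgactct
Mvk (chr5:114444019-114444268, plus strand): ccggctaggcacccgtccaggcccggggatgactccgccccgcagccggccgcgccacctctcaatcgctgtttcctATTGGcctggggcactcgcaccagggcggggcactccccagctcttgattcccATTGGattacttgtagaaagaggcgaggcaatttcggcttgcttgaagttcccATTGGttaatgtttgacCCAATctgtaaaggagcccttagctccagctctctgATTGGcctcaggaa

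RefSeq windows of 250 bases before to 50 bases after the start were matched for 28 of the 34 genes, with no entry for Scd1, Scd2, Fads1, Fdps, Fdft1 and Sqle. CCAAT on either strand was present for 19 of the 28 (67.9%), against 41.1% of all 27025 genes with a window. Among the 11174 genes with a window that were tested in organoids against tips, the share was 42.9%. All 10 sterol genes with a window held it, against 4 of 8 fatty acid genes, 2 of 5 glycerolipid genes and 3 of 4 regulators. Mvk held 5 matches and Elovl6 held 0. TCACNCCAC was present for Hmgcs1 and Pcyt1a (7.14% of the 28, against 1.44% of all genes), and CACGTG for Abca1, Dhcr7, Elovl5, Insig1, Sc5d and Scap (21.4% against 8.09%). These are matches of letters only.

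The first comparison asks how organoids differ from the tips they start from, with libraries of different stages and culture days standing in for replicates. Fatty acid and glycerolipid genes were mostly higher in organoids, while the sterol branch moved in both directions. Scd1, the stearoyl-CoA desaturase, moved most. By limma with Benjamini-Hochberg adjusted p under 0.05, 27 of the 34 genes were called, 21 higher and 6 lower, against 61.9% of all 16779 genes tested (21.7% higher and 40.2% lower). Most called members were thus higher, whereas most called genes overall were lower. The median difference on the log2(TPM + 1) scale, which understates changes of low genes, was 0.87 for the fatty acid branch, 1.43 for the glycerolipid branch, 0.20 for the sterol branch and -0.20 for all genes.

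**Figure D1:**
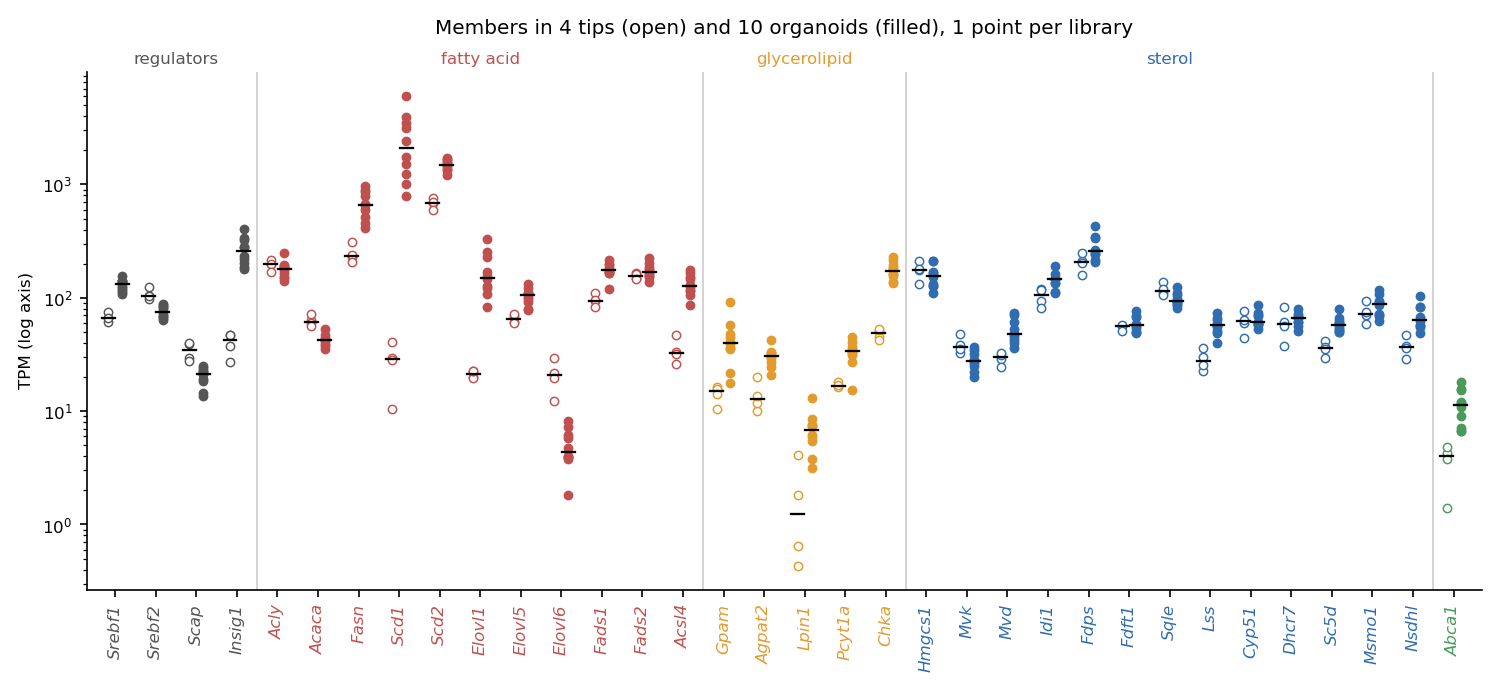
TPM on a log axis for the 34 genes in the 4 tips (open circles) and 10 organoids (filled circles), 1 circle per library, with bars at the medians and colours by branch. Scd1 shows the widest gap, with tips at 10.4 to 41.1 TPM and organoids at 792 to 6081 TPM, while most sterol genes overlap.

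Among the fatty acid genes, 7 were higher, 2 were lower and 2 were not called. Scd1 (chr19:44394455-44407879 on GRCm38, minus strand) was at 29.7, 41.1, 28.1 and 10.4 TPM in the tips from E10.5 to E13.5 and at 792 TPM (lowest), 2087 TPM (median) and 6081 TPM (highest) in organoids (log2 difference 6.36 ± 0.48 SE, limma adjusted p = 2.56e-08). All 10 organoids lay above all 4 tips, and the ratio of the group means was 92.9. Its neighbour and paralog Scd2 (chr19:44293674-44306864) was high already in the tips, at 682, 757, 696 and 600 TPM, and ran from 1219 to 1704 TPM in organoids (1.12 ± 0.09, limma adjusted p = 5.46e-08). The ratio of Scd1 to Scd2 was thus 0.0174 to 0.0543 in tips and 0.575 to 3.57 in organoids. Together they made up 43.4 to 45.0% of the summed TPM of the 11 fatty acid genes in tips and 63.7 to 77.8% in organoids. Ranked by level among all genes, Scd1 stood at place 5402 in tips and 38 in organoids, and Scd2 at place 226 and 94.

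Fasn, the fatty acid synthase, was at 228, 313, 237 and 207 TPM in tips and at 411 TPM (lowest), 662 TPM (median) and 971 TPM (highest) in organoids (1.43 ± 0.21 SE, limma adjusted p = 2.21e-05). The elongase of saturated and monounsaturated very long chains, Elovl1, was at 20.1, 19.4, 22.6 and 22.6 TPM in tips and at 82.1, 150.4 and 327 TPM (lowest, median, highest) in organoids (2.85 ± 0.28, limma adjusted p = 3.45e-07). Acsl4, which activates arachidonate, was at 33.4, 46.6, 31.8 and 26.0 TPM in tips and ran from 86.9 to 177 TPM in organoids (1.91 ± 0.17, limma adjusted p = 1.56e-07). All 10 organoids lay above all 4 tips for these 3 genes. The same separation held for the desaturase Fads1 (0.87) and for the elongase of polyunsaturated chains Elovl5 (0.64).

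Enzymes at the entry of the route were not higher. Acaca, the acetyl-CoA carboxylase, was at 63.3, 71.6, 59.5 and 56.6 TPM in tips and at 35.1, 42.3 and 52.9 TPM (lowest, median, highest) in organoids (-0.56 ± 0.10 SE, limma adjusted p = 0.000157). Acly had medians of 198 TPM in tips and 180 TPM in organoids (-0.13, adjusted p = 0.347) and Fads2 155 and 170 TPM (0.15, adjusted p = 0.246), and neither was called by limma. Elovl6, which lengthens palmitate to stearate, was at 21.8, 29.6, 19.7 and 12.35 TPM in tips and at 1.82, 4.38 and 8.24 TPM in organoids (-1.88 ± 0.27, limma adjusted p = 2.21e-05). Every organoid lay below every tip for Acaca and Elovl6.

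All 5 glycerolipid genes were higher. Chka, which phosphorylates choline, was at 45.1, 52.2, 42.6 and 52.6 TPM in tips and at 135, 173 and 229 TPM (lowest, median, highest) in organoids (1.83 ± 0.13 SE, limma adjusted p = 1.54e-08). Gpam, the mitochondrial glycerol-3-phosphate acyltransferase, was at 16.25, 15.6, 10.45 and 14.3 TPM in tips and at 17.6, 39.8 and 91.6 TPM in organoids (1.43 ± 0.31, limma adjusted p = 0.000815). The lowest organoid for Gpam (E13.5, 11 days) lay just above the highest tip. Lpin1, a phosphatidate phosphatase (1.63), Agpat2, the next acyltransferase (1.11), and Pcyt1a (0.88) were also called. Lpin1 remained low, with a median of 6.78 TPM in organoids, and Pcyt1a in 1 organoid (E10.5, 18 days) lay below all tips at 15.35 TPM, against 27.3 to 44.7 TPM in the other 9.

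Of the 13 sterol genes, 6 were higher, 2 were lower and 5 were not called. Hmgcs1, the HMG-CoA synthase, was at 174, 212, 179 and 134 TPM in tips and at 109.5, 156 and 209 TPM (lowest, median, highest) in organoids (-0.17 ± 0.16 SE, limma adjusted p = 0.371). The groups overlapped for Hmgcs1, and likewise for Cyp51 (0.10), Dhcr7 (0.18), Fdft1 (0.08) and Msmo1 (0.20), whose limma adjusted p ran from 0.289 to 0.548. Lss, the cyclase that makes lanosterol, was at 30.1, 36.2, 22.6 and 25.7 TPM in tips and at 39.8, 57.4 and 72.8 TPM in organoids (0.98 ± 0.14, limma adjusted p = 2.32e-05). All organoids lay above all tips for Lss, for Mvd, the mevalonate decarboxylase (0.77), for the lanosterol-pathway dehydrogenase Nsdhl (0.83) and for the desaturase Sc5d (0.71). Idi1 (0.48) and Fdps (0.43, adjusted p = 0.0383), which make and join isoprenoid units, were called by limma with overlapping groups. The lower genes were Mvk, the mevalonate kinase, with medians of 36.8 TPM in tips and 27.9 TPM in organoids (-0.45), and Sqle, the squalene epoxidase, with 114 and 92.7 TPM (-0.28), though its direction turned when libraries were rescaled. The sterol branch summed to 815 to 1227 TPM in tips and 1007 to 1667 TPM in organoids, whereas the fatty acid branch summed to 1395 to 1837 TPM and 3406 to 10005.4 TPM, or without Scd1 to 1385 to 1796 TPM and 2615 to 3924 TPM. Without the E10.5, E12.5 or E13.5 tip Fdps was no longer called (limma adjusted p = 0.0629, 0.0765 and 0.156), nor without the E10.5 organoid of 18 days (0.0575) or the E13.5 organoid of 19 days (0.0578), with organoids of 11 to 13 days alone (0.0911) or with no filter (0.0636). Mvk lost its call without the E11.5 tip (limma adjusted p = 0.0773), and Sqle without the E11.5 or E12.5 tip (0.123 and 0.0635).

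The regulators split into a pair that was higher and a pair that was lower. Insig1 was at 37.8, 47.4, 47.1 and 27.2 TPM in tips and at 179, 257 and 401 TPM (lowest, median, highest) in organoids (2.68 ± 0.21 SE, limma adjusted p = 2.95e-08). Srebf1, which favours fatty acid genes, was at 66.5, 75.0, 61.1 and 66.1 TPM in tips and ran from 107 to 155 TPM in organoids (0.94 ± 0.10, limma adjusted p = 5.32e-07). Srebf2, which favours sterol genes, was at 103, 124, 97.4 and 103 TPM in tips and ran from 63.9 to 88.9 TPM in organoids (-0.49 ± 0.10, limma adjusted p = 0.000447). Scap was lower as well (-0.74). For each of the 4 regulators no organoid overlapped the tips. Abca1 was at 4.23, 4.82, 3.81 and 1.40 TPM in tips and ran from 6.63 to 17.9 TPM in organoids (1.43 ± 0.28, limma adjusted p = 0.000366).

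Other genes of the same pathways moved in both directions. Of 17 tested sterol genes outside the 34, 10 were higher and 4 lower, and of 30 tested fatty acid and glycerolipid genes, 15 were higher and 8 lower. The shares over all genes were 21.7% higher and 40.2% lower. Me1, the malic enzyme that supplies NADPH, was higher by 3.42, Acss2, which makes acetyl-CoA from acetate, by 2.75, and Lpcat1, which remodels surfactant phosphatidylcholine, by 2.81. Lbr, of the later sterol steps, was lower by limma (-1.38), as were the elongases Elovl2 (-2.66) and Elovl4 (-2.43).

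Rescaling libraries by median ratios moved the median of all genes from -0.20 to 0.06 and the share of higher genes among calls from 35.03 to 49.14%. Under it 26 members were higher and 3 lower, against 61.8% of all genes called, the lower ones being Elovl6, Acaca and Scap, while Srebf2 and Mvk were no longer called and Sqle turned to 0.03 (limma adjusted p = 0.864). Xist was at 45.4 to 90.1 TPM and the Y-linked gene Eif2s3y at 21.4 to 39.8 TPM in tips. The E9.5 organoid held them at 82.2 and 65.9 TPM, and the other organoids at 192 to 396 TPM and at most 0.55 TPM. Of the called members, Acsl4 and Nsdhl lie on the X chromosome. The AT2 marker sum, the mitochondrial share, the short-gene listing and these sex-linked genes move with this comparison, and their part was not tested.

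Within organoids, the next question was whether members changed with days in culture. Fasn and Insig1 rose and Chka fell in a limma fit with terms for culture day and start stage. In the sterol branch 0 of 13 genes were called (1 at unadjusted p under 0.05, against 4293 of all 16779 genes). Of the 34 genes 3 were called, against 9.64% of all genes tested (2.97% higher and 6.67% lower), a share close to that background. Over the 21 days from day 11 to day 32, Fasn rose by 0.90 ± 0.21 SE (limma adjusted p = 0.0223) and Insig1 by 0.80 ± 0.20 (adjusted p = 0.0271), while Chka changed by -0.53 ± 0.14 (adjusted p = 0.0344). Scd1 had the largest slope at 1.78 ± 0.53 and missed the threshold (limma adjusted p = 0.0547).

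**Figure D2:**
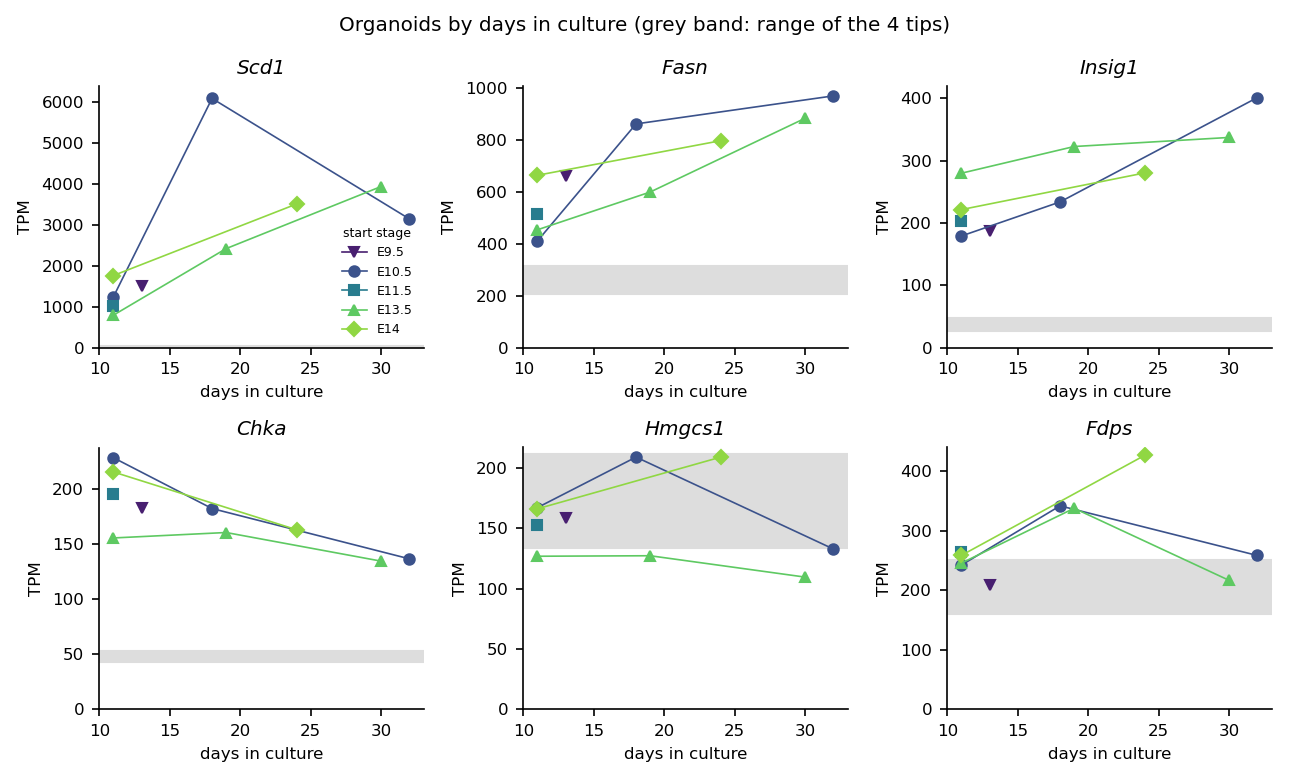
TPM against days in culture for Scd1, Fasn, Insig1, Chka, Hmgcs1 and Fdps in the 10 organoid libraries, with symbols and colours by start stage, lines joining libraries of 1 start stage, and a grey band for the range of the 4 tips. Fasn and Insig1 climb and Chka declines, Scd1 has its maximum of 6081 TPM at 18 days, and Hmgcs1 runs from 109.5 to 209 TPM against 134 to 212 TPM in tips.

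By start stage, Fasn was at 411, 863 and 971 TPM after 11, 18 and 32 days from E10.5 tips, at 454, 599.95 and 884 TPM after 11, 19 and 30 days from E13.5 tips, and at 665 and 798 TPM after 11 and 24 days from E14 tips. Insig1 followed the same order, at 179, 234 and 401 TPM, at 279.7, 323 and 337 TPM and at 221 and 280.1 TPM. Each later library was thus higher than each earlier one of its start stage for both genes. For Scd1 the E10.5 organoids did not keep that order, at 1240.4, 6081 and 3143 TPM, whereas the E13.5 organoids were at 792, 2415 and 3931 TPM. All 5 organoids of 18 days or more held more Scd1 (2415 to 6081 TPM) than all 5 organoids of 11 to 13 days (792 to 1759 TPM).

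With 1 library per combination, the spread around the fitted lines stood in for replicates. Without the 32-day organoid, Insig1, Fasn and Chka were no longer called (0.53, 0.98 and -0.50, scaled to 21 days, limma adjusted p = 0.326, 0.119 and 0.221). At least 1 member was called in each of the 10 fits without 1 organoid, so in this fit it was a member other than these. In all, Chka lost its call in 8 alternatives and Fasn and Insig1 in 4 each. Fasn also lost it under quantile scaling (limma adjusted p = 0.0509) and without the E13.5 organoid of 11 days (0.0522). Chka also lost it under quantile scaling (limma adjusted p = 0.0518) and with no filter (0.0537). Without the E14 organoid of 11 days, Insig1 and Chka both lost it (limma adjusted p = 0.0630 and 0.0832). Without the E10.5 or E11.5 organoid of 11 days, or the E13.5 organoid of 30 days, 1 member was still called, and without the E10.5 organoid of 18 days 5 were. Rescaling by median ratios changed the share of higher genes among calls from 30.8 to 59.8% and ended the call of Chka (-0.32). Among the pathway genes outside the 34, 7 of 30 tested fatty acid genes were higher with days and 5 lower, against 2.97 and 6.67% of all genes. The lipid droplet coat gene Plin2 was at 1.15 and the second acetyl-CoA carboxylase Acacb at 1.93. Of 17 sterol genes 0 were called by limma (3 at unadjusted p under 0.05, against 4293 of all 16779 genes). For the stage of the starting tip, 0 of 34 members were called by limma, against 0.0536% of all genes. At unadjusted p under 0.05 were 2 members, against 1250 of all 16779 genes. The largest differences over the 4.5 days from E9.5 to E14 were -0.93 for Gpam (limma adjusted p = 0.655) and 0.52 for Elovl6 (adjusted p = 0.741).

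Across the 4 tips, from E10.5 to E13.5, 0 of 34 members were called by limma, against 0.733% of all genes. At unadjusted p under 0.05 was 1 member, against 1664 of all 16779 genes. Most values nonetheless sat below 0: 31 of 34 slopes, 13 of 13 in the sterol branch (median -0.40 over 3 days, against -0.03 for all genes). Dhcr7, the last enzyme of cholesterol synthesis, was at 60.7, 82.9, 56.4 and 37.2 TPM (-0.79 ± 0.29 SE, limma adjusted p = 0.344). Scd1 (-1.44) and Elovl6 (-0.86) had the steepest slopes of the fatty acid branch, with adjusted p of 0.659 and 0.607. The E11.5 tip held the highest value and the E13.5 tip the lowest for many members of both branches, among them Scd1, Fasn, Elovl6, Hmgcs1, Fdps, Cyp51, Dhcr7 and Msmo1. Without the E10.5 tip, Dhcr7 was called by limma (-1.70), and without the E13.5 tip Cyp51 turned to 0.13. Both values are slopes scaled to 3 days, which is longer than the span of the tips kept.

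The LO set gave the members at 3 days and with DCI, with 1 library each. No test was made, and values are compared only by size. A gene was counted where log2(TPM + 1) differed by at least 1 with at least 5 TPM in the higher library. In the LO and 2C sets, shares of all genes are of those with at least 5 TPM in the higher library (11274 for day 11 against day 8). Members are counted over all 34, of which 32 had that level for day 11 against day 8. Between day 8 and day 11 Scd1 alone passed, at 101 and 286 TPM (1.49), 1 of 34 members against 5.25% of all genes (2.38% higher). From day 11 to day 18, 11 members were higher and 1 lower, against 6.32 and 7.77% of all genes (14.1% in all). All 11 fatty acid genes and all 13 sterol genes lay above 0, with medians of 0.78 and 0.74, against -0.14 for all genes. With DCI at day 11, 13 members were higher and 0 lower, against 11.2% of all genes higher (24.2% in all), with medians of 1.07 for the fatty acid, 1.45 for the glycerolipid and 0.82 for the sterol branch, against -0.08 for all genes. Both comparisons use the same day 11 library, so they are not independent.

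**Figure D3:**
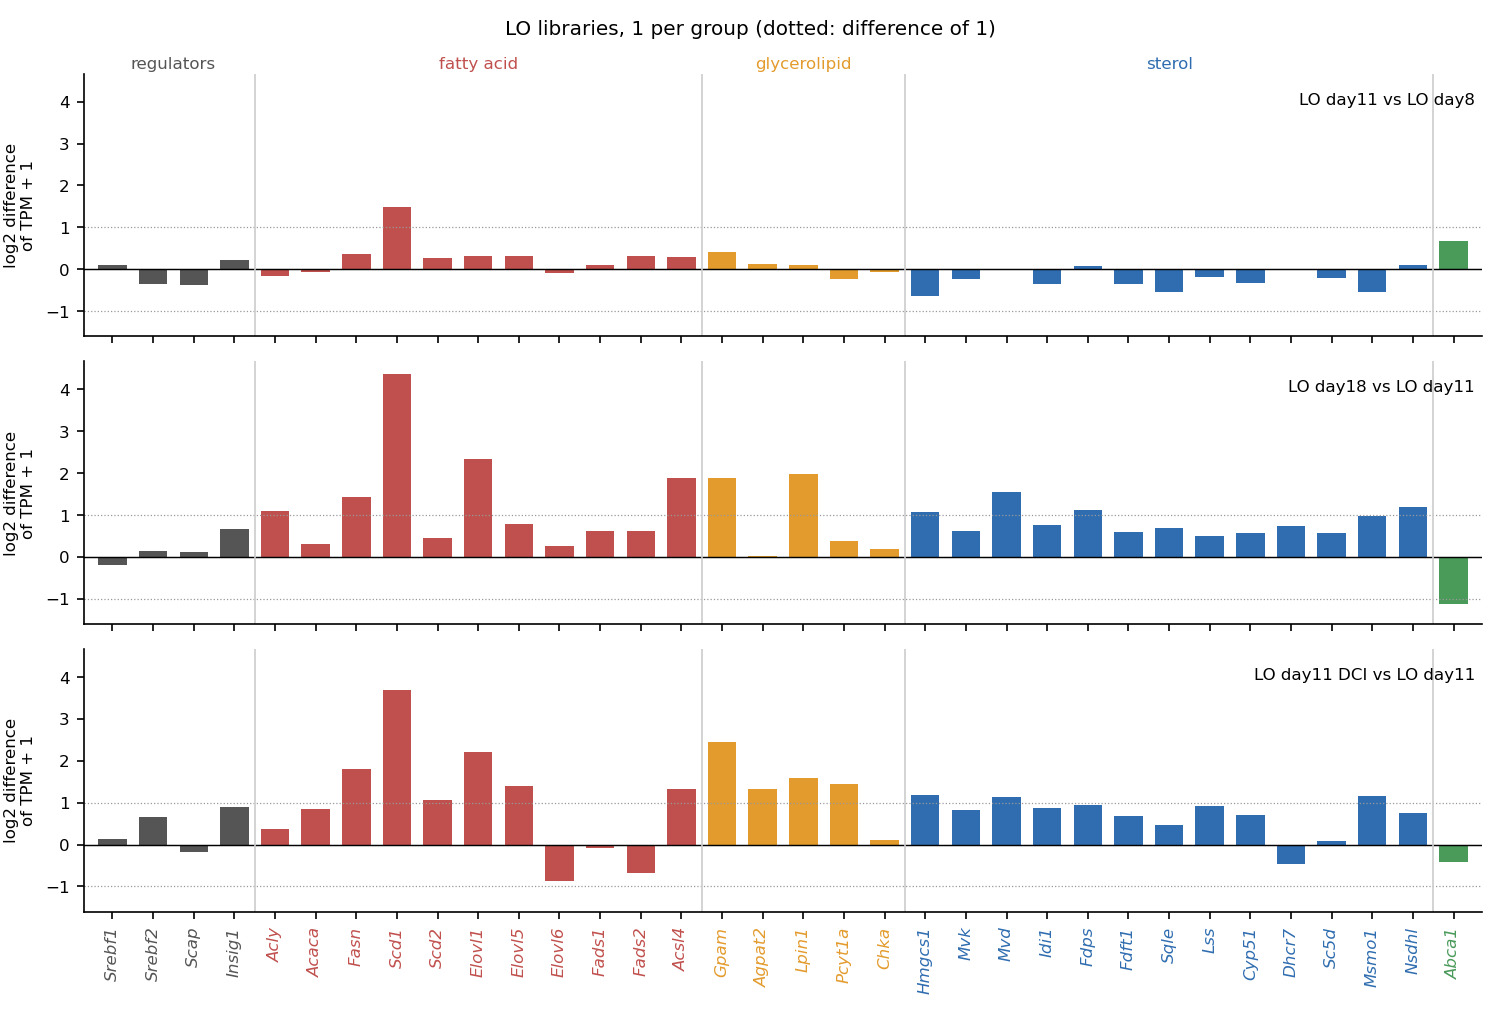
Difference in log2(TPM + 1) for each member between LO libraries, 1 library per group, with bars coloured by branch (Abca1 last, in green) and dotted lines at a difference of 1. Scd1 has the largest bar in each panel, at 1.49, 4.37 and 3.69, and 10 of 13 sterol genes are below 0 from day 8 to day 11 and all are above 0 from day 11 to day 18.

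Scd1 was at 101, 286 and 5925 TPM at days 8, 11 and 18 and at 3712 TPM at day 11 with DCI. Elovl1 went the same way, at 48.8, 61.5 and 312 TPM and 288 TPM with DCI, and so did Fasn, at 255, 329 and 888 TPM and 1149 TPM. Gpam was at 19.8, 26.6 and 102 TPM, with its highest LO value at 149 TPM with DCI. Of these 4 genes, Fasn and Gpam were higher in the DCI library than at day 18, while Scd1 and Elovl1 were lower. Acsl4 was at 48.8 TPM at day 11, 182 TPM at day 18 and 124 TPM with DCI.

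Several members passed the size rule in 1 of these comparisons and not in the other, a difference that was not tested. Agpat2 was at 32.7 TPM at day 11, 33.3 TPM at day 18 and 83.3 TPM with DCI, and Pcyt1a at 13.6, 18.1 and 38.8 TPM. Scd2 was at 1322, 1794 and 2783 TPM and Elovl5 at 75.2, 129 and 199 TPM, in the same order. These 4 genes passed with DCI and did not at day 18. The sterol gene Msmo1, at 52.6, 105 and 118 TPM, likewise passed with DCI alone. Hmgcs1 (105.6, 224 and 241 TPM), Mvd (24.55, 73.2 and 55.2 TPM) and Lpin1 (2.89, 14.3 and 10.65 TPM) passed in both. Acly, at 122 TPM at day 11, was at 261 TPM at day 18 and at 160 TPM with DCI. Fdps, at 170.5 TPM at day 11, was at 374 and 328 TPM, and Nsdhl, at 36.9 TPM, was at 85.7 and 63.1 TPM, which passed at day 18 alone. Elovl6 (3.34, 4.22 and 1.39 TPM), Fads2 (152, 235 and 94.2 TPM) and Dhcr7 (48.5, 81.8 and 34.9 TPM) were above their day 11 value at day 18 and below it with DCI. Abca1 was at 16.5 TPM at day 11, 7.08 TPM at day 18 and 12.0 TPM with DCI.

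AT2 markers summed to 12724, 38074 and 119759 TPM at days 8, 11 and 18 and to 83065 TPM with DCI, and proliferation markers to 641, 505, 258 and 122 TPM. Alveolar type 1 markers summed to 283, 547, 1189 and 4886 TPM in the same order, distal tip markers to 1360.2, 1472, 1033 and 422 TPM, and mesenchyme markers to 14.6, 70.4, 3.58 and 68.9 TPM. The part of these cell types in the LO differences was not tested. Eif2s3y was at 43.2 TPM at day 8 and at most 0.11 TPM in the other LO libraries. Xist was at 332, 509 and 330 TPM at days 8, 11 and 18 and at 179 TPM with DCI. The part of these sex-linked genes was not tested either. Outside the 34, with DCI 7 of 18 sterol genes and 10 of 32 fatty acid genes were higher past the size rule (0 and 2 lower). Of these 18 and 32 genes, 17 and 27 had at least 5 TPM in the higher library, and 11.2% of all such genes were higher. Among the higher ones were Lpin2 (33.4 to 272 TPM), Pmvk, the phosphomevalonate kinase (19.3 to 272 TPM), and Lpcat1 (141 to 863 TPM). The LO day 18 library and the E10.5 organoid of 18 days, in different tables, correlated at 0.973 over 19175 genes, the highest of any pair from different tables (the next was 0.958). The labels do not say whether they share a culture, so they are not taken as independent observations of day 18.

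The 2C set gave 3 additions with 1 library each, all set against the same 2C library. With VC, 5 of 34 members were higher past the size rule and 0 lower, against 5.81% of all genes higher (9.61% in all). Scd1 was at 874 TPM in 2C and 5637 TPM in 2C+VC, Fasn at 470 and 992 TPM, Elovl1 at 83.4 and 199.7 TPM, Fads1 at 66.5 and 157 TPM and Lpin1 at 3.65 and 10.2 TPM. The sterol genes were all above 0 (13 of 13, median 0.76, against -0.10 for all genes), though none of them reached a difference of 1. Hmgcs1, for example, was at 111 and 200.5 TPM and Fdps at 100.1 and 195 TPM.

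**Figure D4:**
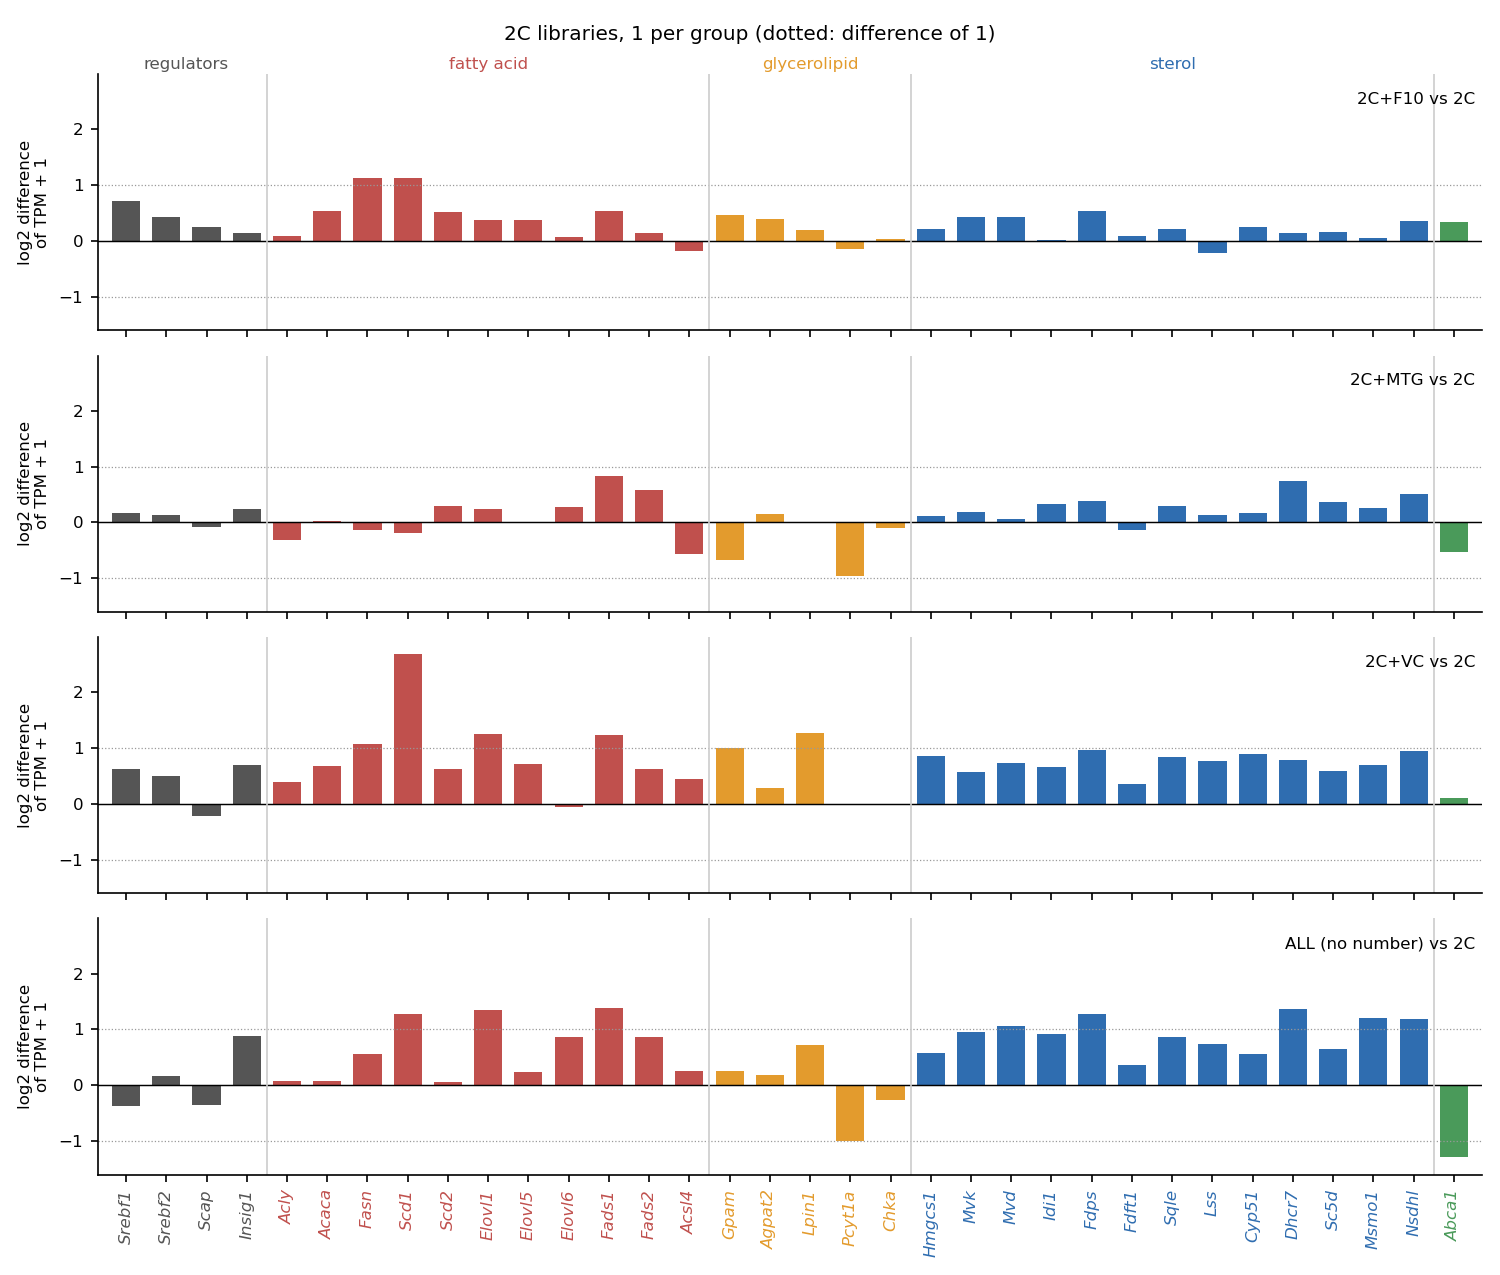
Difference in log2(TPM + 1) for each member between the libraries with an addition or labelled ALL and the 2C library, 1 library per group, with bars coloured by branch (Abca1 last, in green) and dotted lines at a difference of 1. Scd1 reaches 2.69 with VC, the sterol bars with VC all lie between 0 and 1, and with MTG no bar reaches 1 in either direction.

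With F10, 2 members passed, against 5.90% of all genes in either direction and 3.08% higher: Scd1 at 1917 TPM and Fasn at 1034 TPM. Srebf1 was at 146 TPM in 2C, 242 TPM with F10 and 227 TPM with VC. With MTG, 0 members passed in either direction, against 7.52% of all genes, and Scd1 (766 TPM) and Fasn (426 TPM) were slightly below 2C. Pcyt1a was nearest to the size rule with MTG, at 58.2 TPM in 2C and 29.5 TPM. Sterol genes lay above 0 in 12 of 13 cases with F10 and in 12 of 13 with MTG, with medians of 0.21 and 0.26, against 0.02 and -0.13 for all genes.

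The unnumbered ALL library of the same table differed from 2C in 8 higher members and 2 lower, against 4.89 and 7.44% of all genes (12.3% in all), and here the sterol branch held 5 of the 8. Dhcr7 was at 22.9 TPM in 2C and 60.5 TPM in ALL, Fdps at 100.1 and 245 TPM, Msmo1 at 38.2 and 88.8 TPM, Nsdhl at 30.1 and 69.55 TPM and Mvd at 22.4 and 48.2 TPM. All 13 sterol genes and all 11 fatty acid genes lay above 0. Pcyt1a (58.2 and 28.55 TPM) and Abca1 (33.8 and 13.3 TPM) were the lower members. The fatty acid genes Scd1 (2122 TPM), Elovl1 (213 TPM) and Fads1 (176 TPM) were the other higher ones. AT2 markers summed to 27072 TPM in 2C, 28759 TPM with F10, 44292 TPM with MTG, 75611 TPM with VC and 111691 TPM in ALL, and mesenchyme markers to 96.7 TPM with F10 against 3.55 TPM in 2C, and their part was not tested. Xist was at 446 TPM in 2C, 277 TPM with F10 and 212 TPM in ALL, against 0.21 TPM with MTG and 0.30 TPM with VC. The Y-linked gene Eif2s3y was listed at 0 in the former 3 libraries and was at 83.3 TPM with MTG and 85.1 TPM with VC, and the part of this difference in sex-linked genes was not tested either.

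The numbered culture groups are the replicated test of the 3 factors, with n = 2 each and 1 limma fit over the 8 libraries. Against ALL, none of the 34 members was called for any omission by limma, against 1.83, 0.513 and 0.804% of all genes for ALL-FGF10, ALL-MTG and ALL-VC. At unadjusted p under 0.05 were 6, 9 and 7 of the 34, against 2705, 1924 and 2533 of all 14802 genes tested. The 3 comparisons share the ALL libraries. Between omissions, ALL-FGF10 held more Gpam than ALL-MTG and ALL-VC, more Acly and Acsl4 than ALL-MTG, and more Elovl1 than ALL-VC. That gave 3 of 34 members against ALL-MTG and 2 against ALL-VC, all higher, against 3.52 and 3.82% of all genes in either direction and 1.78 and 1.94% higher. ALL-MTG and ALL-VC differed in 0 members by limma, against 0.547% of all genes (3 at unadjusted p under 0.05, against 1930 of all 14802 genes).

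**Figure D5:**
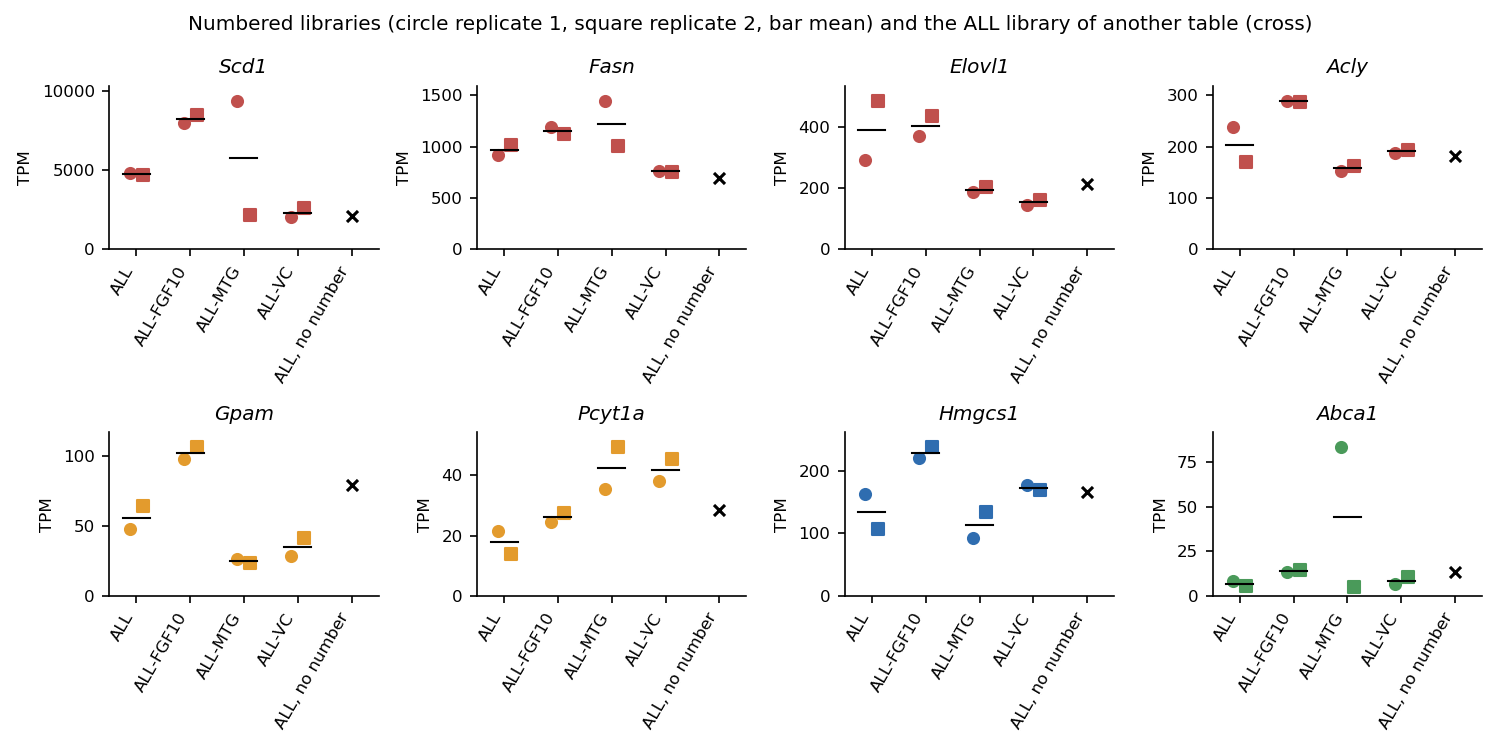
TPM of 8 members in the numbered culture groups (circle for replicate 1, square for replicate 2, bar for the mean, coloured by branch) and in the unnumbered ALL library of another table (cross). Gpam and Acly are highest in ALL-FGF10, and the ALL-MTG replicates lie far apart for Scd1 (9370 and 2194 TPM) and Abca1 (83.3 and 4.73 TPM).

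Gpam was at 97.5 and 106 TPM in ALL-FGF10, 26.0 and 23.1 TPM in ALL-MTG, 28.4 and 41.1 TPM in ALL-VC, and 47.9 and 63.7 TPM in ALL (2.01 ± 0.22 SE against ALL-MTG, limma adjusted p = 0.00519, and 1.54 ± 0.22 against ALL-VC, adjusted p = 0.0127). The ALL-FGF10 pair lay above all 6 other numbered libraries, and the unnumbered ALL library was at 78.9 TPM. Elovl1 was at 371 and 435 TPM in ALL-FGF10, 186 and 203 TPM in ALL-MTG, 144 and 162 TPM in ALL-VC, and 293 and 485 TPM in ALL (1.39 ± 0.23 against ALL-VC, limma adjusted p = 0.0224). The unnumbered ALL library held 213 TPM of Elovl1, below both numbered ALL libraries. Acly was at 289 and 287 TPM in ALL-FGF10 and 153 and 162 TPM in ALL-MTG (0.86 ± 0.17, limma adjusted p = 0.0396), and Acsl4 at 203 and 217 TPM and 137 and 120 TPM (0.70 ± 0.14, adjusted p = 0.0397).

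These calls depend on the libraries kept. Without either ALL-FGF10 library, 0 members were called against ALL-MTG and 0 against ALL-VC, and without ALL-VC replicate 1 there were 0 against ALL-VC. Without ALL-VC replicate 2 there was 1 against ALL-VC, and without either ALL-VC library 1 against ALL-MTG. Without either ALL library there were 5 against ALL-MTG, and without either ALL-MTG library 4 against ALL-VC. Fitted on the 2 groups alone, ALL-FGF10 against ALL-VC had 13 members called, 10 higher and 3 lower, against 15.7% of all genes, with Scd1 among the higher (1.84, limma adjusted p = 0.0051, against 0.124 in the fit of 8 libraries). AT2 markers summed to 100348 to 108690 TPM in ALL-FGF10, 85673 to 86024 TPM in ALL-MTG and 65961 to 72479.5 TPM in ALL-VC, and by limma 4 of 6 were higher in ALL-FGF10 against ALL-MTG and 3 of 6 against ALL-VC, and their part was not tested. ALL-FGF10 and ALL-MTG replicate 1 list 54, 119 and 21 genes of 100 to 150 nt above 0 TPM, and the other 5 libraries list 0. Both ALL-FGF10 libraries list such genes and no ALL or ALL-VC library does. A term for this listing is therefore set by the gap between the 2 ALL-MTG replicates alone. It cannot separate the listing from FGF10 omission, so lost calls under it do not decide the part of the listing. With that term no member was called against ALL-VC by limma. Against ALL-MTG, Acly lost its call in 9 alternatives, among them that term (limma adjusted p = 0.0923), a replicate block (0.0575), no filter (0.0746) and leaving out ALL-MTG replicate 1 (0.126) or 2 (0.0885). Acsl4 lost its call in 10, among them the same 5 (limma adjusted p = 0.112, 0.0637, 0.0557, 0.0713 and 0.112) and the fit on the 2 groups alone (0.0543). Gpam lost its call against ALL-MTG only without an ALL-FGF10 library (limma adjusted p = 0.0872 and 0.108). Elovl1 lost its call against ALL-VC in 7 alternatives, among them no filter (limma adjusted p = 0.0585), median ratios (0.0521) and the term for the short-gene listing (0.248).

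Scd1 varied between replicates in 1 group. It was at 4822 and 4710 TPM in ALL, 7944 and 8490 TPM in ALL-FGF10, 9370 and 2194 TPM in ALL-MTG and 2014 and 2618 TPM in ALL-VC. The SD of ALL-MTG, 5075 TPM, was close to its mean of 5782 TPM, while those of the other groups were 79.2, 386 and 427 TPM. Replicate 1 of ALL-MTG also held 17.6 times as much Abca1 as replicate 2, 1.99 times as much Srebf1 (286 and 144 TPM) and a sterol sum of 799 against 1177 TPM. Its mesenchyme markers summed to 180.02 TPM, with Dcn at 168 TPM and Col1a1 at 11.3 TPM, against 8.16, 6.57 and 1.49 TPM in replicate 2, and their part was not tested. These libraries differ in sex-linked genes as well, with Xist at 291 and 0.31 TPM and Eif2s3y at 0.13 and 79.55 TPM. In the ALL group Xist was at 6.04 and 147 TPM and Eif2s3y at 74.45 and 0.22 TPM. The part of these sex-linked differences was not tested. No call was made for ALL-VC against ALL, where Scd1 (-1.05, limma adjusted p = 0.373) and Elovl1 (-1.29, adjusted p = 0.0582) had values below 0 in groups that did not overlap. Scd1 was called there without ALL-MTG replicate 1 or 2 (limma adjusted p = 0.0348 and 0.0357) and with the term for the short-gene listing (0.0401). Pcyt1a was at 38.2 and 45.3 against 21.6 and 14.0 TPM (1.21, adjusted p = 0.0851).

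In the sterol branch no gene was called for any omission or between omissions by limma. Its 13 genes all lay below 0 in ALL-MTG against ALL (median -0.38, against 0.07 for all genes). All 13 also lay below 0 against ALL-VC (-0.38, against -0.11). At unadjusted p under 0.05 were 2 of the 13 in each comparison, against 1924 and 1930 of all 14802 genes. The values below 0 rest largely on ALL-MTG replicate 1. Without it, the median was -0.16 against ALL, with Cyp51, Hmgcs1 and Idi1 above 0 (10 of 13 below), and -0.15 against ALL-VC, with Cyp51, Mvd and Nsdhl above 0. Without ALL-MTG replicate 2 it was -0.62 against both. Without ALL replicate 1, 8 of 13 lay below 0 against ALL (median -0.19). ALL-FGF10 against ALL-MTG had 12 of 13 above 0 (median 0.56, against 0.03), with 7 at unadjusted p under 0.05, against 2703 of all 14802 genes. Hmgcs1 came nearest to the threshold (1.03, limma adjusted p = 0.0659). ALL-FGF10 against ALL had 11 of 13 above 0 (median 0.16, against 0.10). Fdps was at 375 and 450.2 TPM in ALL, 329 and 316 TPM in ALL-FGF10, 215 and 328 TPM in ALL-MTG and 397 and 372 TPM in ALL-VC. Hmgcs1 was at 162 and 106 TPM in ALL and 221 and 238 TPM in ALL-FGF10 (0.80 ± 0.24 SE, limma adjusted p = 0.150), a pair of groups that did not overlap. Mvk went the other way, at 35.5 and 27.9 TPM in ALL and 18.9 and 16.1 TPM in ALL-FGF10 (-0.82 ± 0.22, limma adjusted p = 0.125).

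The intact organoid and the 8 pieces, 1 library each, held fatty acid genes at high levels. The fatty acid branch summed to 8352 to 16453 TPM over the pieces and the sterol branch to 1208 to 1809 TPM, in a table of their own, with no test against other tables. Scd1 ran from 4514 TPM (up-half-left) to 10785 TPM (down-half-left), with 6445 TPM in the intact organoid. The down-half-left piece was the highest of the 8 pieces for many members, among them Scd1, Scd2, Fasn, Elovl1, Insig1, Lpin1, Chka, Fdps, Dhcr7, Msmo1 and Abca1, and it had the highest sterol sum at 1809 TPM. Over the 8 pieces, the highest level was 2.39 times the lowest for Scd1, 1.52 times for Fasn, 2.46 times for Hmgcs1, 1.15 times for Fads2 and 4.74 times for Abca1. Xist was at 216 TPM in the intact organoid and 212 TPM in the up-half-left piece, where Eif2s3y was listed at 0, while the other 7 pieces held Xist at 0.02 to 5.40 TPM and Eif2s3y at 65.2 to 92.8 TPM. The part of this difference in the values by piece was not tested. With no replicate of any piece, no test of position was made.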

How the data were processed

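RNA-seq of 40 mouse libraries was deposited as 5 tables. The authors deposited TPM values for genes. The submitters' processing notes list RSEM, Bowtie2 and mm10, and tool versions are not given in the sources used here. TPM keeps no depth, so the depth of each library is unknown and no interval for counting error is given, and 1 column that matched no sample was not used. Values were transformed to log2(TPM + 1), and genes with at least 1 TPM in at least 2 libraries were tested with limma 3.58.1 in R 4.3.3 with Benjamini-Hochberg adjustment over all genes of a fit (threshold 0.05). Organoids were compared with tips, and slopes were fitted on embryonic day in tips and on culture day and start stage in organoids. The 8 numbered culture libraries were fitted together, each group by its label. Single libraries were compared by size, counting a log2 difference of at least 1 with at least 5 TPM in the higher library. The limma steps were tested on simulated data. Tables and figures were made with Python 3.11.15, pandas 2.3.3, numpy 2.4.6 and matplotlib 3.10.9. Gene positions are from GENCODE on GRCm38 and promoters from RefSeq on GRCm38.p6. The members, the other pathway genes and the markers were chosen with earlier results of these data known. The plan was to give in full the members called (up to 8 in each direction), or past the size rule for single libraries. Where fewer than 3 were called, it named the 3 fatty acid and 3 sterol genes of largest change. It was followed only in part. For start stage, Gpam and Elovl6 are given instead of the genes it named. For other comparisons, such as ALL-MTG against ALL, genes it named are given without their change or p. The other values were chosen after they were seen. Alternatives were other pseudocounts, no filter, median-ratio and quantile scaling, the 2 groups alone, a replicate block, a term for the short-gene listing, a stricter size rule and leaving out each replicate. Leaving out each organoid against tips was chosen after seeing the data.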

Additional observations from a re-analysis of the deposited data

Results flagged for a closer look

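In 68 groups of 4 to 10 libraries checked for a library far from the rest, 2 stood out. Chance alone flags about 1 group in 20, so 2 of 68 is fewer than chance gives. Neither is therefore shown to be unusual. Fads1, a desaturase of polyunsaturated fatty acids, was at 119.48 TPM in the E9.5 organoid of 13 days, against 166.24 TPM in the next lowest and 215.15 TPM in the highest organoid. Pcyt1a, which activates choline, was at 15.35 TPM in the E10.5 organoid of 18 days, against 27.26 TPM in the next lowest and 44.7 TPM in the highest.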

How the results depend on the processing

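Of 27 members called in organoids against tips, leaving out 1 library left 25 to 27. Leaving out 1 library gave 1 to 5 called for culture day, 0 for start stage in each of 10 fits, 0 to 1 for embryonic day in tips, 0 to 2 for each omission against ALL, 0 to 5 for ALL-FGF10 against ALL-MTG, 0 to 4 for ALL-FGF10 against ALL-VC and 0 to 3 for ALL-MTG against ALL-VC. The highest of these came without ALL replicate 1 for ALL-FGF10 and ALL-VC against ALL, and without ALL-MTG replicate 2 for ALL-MTG against ALL and against ALL-VC. Quantile scaling gave 1 for culture day and 5 for ALL-FGF10 against ALL-MTG and against ALL-VC, and no filter gave 1 for each of these last comparisons. For ALL-FGF10 against ALL-VC, the 2 groups alone gave 13 and a term for the short-gene listing 0, and that term gave 1 for ALL-VC against ALL. Replicate differences were little shared between groups (r -0.07 to 0.11), which cannot show whether replicate numbers pair cultures. A replicate block gave 1 called for ALL-VC against ALL (Elovl1, -1.29) and 2 for ALL-FGF10 against ALL-MTG. With a size rule of 1.5, counts were 0 for LO day 11 against day 8, 6 for day 18, 5 for DCI, 0 for 2C+F10, 1 for 2C+VC and 0 for ALL against 2C, and median-ratio scaling gave 8 for 2C+VC. Sqle turned to 0.0262 under median-ratio and 0.0995 under quantile scaling. Leaving out 1 library, Cyp51 slopes across tip stages, each scaled to 3 days, ran from -1.18 to 0.13 (above 0 without the E13.5 tip). In such fits Idi1 ran from -0.18 (without ALL replicate 2) to 0.78 in ALL-VC against ALL. Scd1 ran from -0.0661 (without ALL-MTG replicate 1) to 2.03 in ALL-MTG against ALL-VC. With the short-gene term, Acaca turned to -0.29 and Scd1 to -1.31 in ALL-FGF10 against ALL, and Scd1 to -0.26 against ALL-VC. In ALL-MTG against ALL-VC, Scd1 was at -0.0661 with that term too. The term is set by the 2 ALL-MTG replicates alone, so these turns follow the gap between them. They do not separate the listing from FGF10 omission. The causes were not tested. Of the values for single genes, 9 reversed, 62 lost a call, 18 gained a call and 1184 kept direction and side of the threshold.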
